A study of Oryza sativa with 6 samples.

Results

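*MADS29* and 6 further MADS-box genes of flowering and meristem identity were followed in rice leaves in which *MADS29* was expressed outside its normal domain. The 7 genes were chosen by name, with earlier results of these data known, as *MADS14*, *MADS15*, *MADS18*, *MADS22*, *MADS50* and *MADS56* beside *MADS29*. They were found through the symbols and synonyms of the rice gene table, where the prefix Os of a name was dropped. They are 7 of 17905 genes with a probe set of their own on the array, and 13 probe sets of 57258 belong to them. Leaf RNA came from wild-type (WT) plants of *Oryza sativa* var. PB1 and from transgenic plants of the same variety, labelled MADS29 OX and called MADS29OX here, with 3 arrays per group. In the MADS29OX plants a ubiquitin promoter (pUBI), of a kind active in most tissues, drives the cDNA of *MADS29*, and the transformants were hygromycin resistant. Leaves 3 and 4, counted from the flag leaf, were taken in both groups, and neither plant age nor time of harvest is stated. The paper of these data describes the MADS29OX plants as severely stunted, with miniaturized leaves and early flowering. It also states that the day length was shortened after tillering. A difference in leaf age or stage between the groups thus cannot be told apart from one between genotypes. The labels number 3 replicates per group but do not say whether they came from separate plants or transgenic lines, so p-values measure the spread between these samples.

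MADS-box proteins are transcription factors that bind DNA as dimers and assemble into larger complexes whose partners set which genes they act on. In rice, *MADS14*, *MADS15* and *MADS18* belong to the AP1/FUL group and act when the shoot apex turns into an inflorescence meristem. *MADS50* and *MADS56* belong to the SOC1 group, in which *MADS50* promotes flowering and *MADS56* delays it in long days, and *MADS22* belongs to the SVP group, which acts on meristem identity and responses to brassinosteroids. *MADS29* is a B-sister gene, a group normally active in ovules and seeds.

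The deposited values are probe set signals (intensities) on a linear scale. Signals below a floor of 16 were raised to 16 for the fold changes, and a gene was called higher or lower at a change of at least 2-fold with an adjusted p of at most 0.05 (limma, Benjamini-Hochberg over the 14238 probe sets that exceeded the floor on any array). A fold against a group wholly at the floor is a minimum. A gene with several probe sets is represented by the brightest, its main probe set, and for the 7 genes the others are given beside it. The upper quartile of an array's signals was 11.0 to 11.5. The log2 values correlated at 0.992 to 0.997 among WT arrays and at 0.936 to 0.969 among MADS29OX arrays, so the transgenic samples were the more variable group: the median SD of log2 signal over 9302 probe sets with a mean above 32 was 0.0817 in WT and 0.253 in MADS29OX leaves. Of 6 leaf marker genes 5 were above the floor, and the summed signal ran from 22539 to 22847 in WT and from 24537 to 33169 in MADS29OX leaves. The leaf markers did not move together. *CAB2R* was called higher, with a mean of 2525 in WT and 7073 in MADS29OX leaves, and *PSAG* lower, with 1105 and 537. *RCA*, the brightest, was lower on every MADS29OX array but under 2-fold, with means of 12725 and 10561. *PSAH* and *OsrbcS* had higher means in MADS29OX leaves and were not called. Of 13 floral organ markers 11 lay at or below the floor on all arrays, *MADS1*, *MADS3* and *DL* among them, and the summed signal of the list was 140 to 144 in WT and 97.5 to 113 in MADS29OX leaves. The lower sum came from *MADS16*, with a mean of 69.1 in WT and 30.1 in MADS29OX leaves. *MADS2* went the other way, with 11.4 and 17.7.

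The signal of *MADS29* (LOC4328443) separated the groups completely. It was 6.70, 6.37 and 6.64 on the WT arrays, all below the floor. On the MADS29OX arrays it was 2016, 1788 and 3590. The third MADS29OX sample thus carried the highest *MADS29* signal and the second the lowest, with a mean of 2465 ± 981 (SD, n = 3). The increase was at least 147-fold (log2 fold change 7.20, standard error 0.26, adjusted p = 0.000139 from limma), and no other of the 10045 tested genes rose as far. Transcripts of the transgene and of the native gene were not told apart.

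In MADS29OX leaves 5 of the other 6 genes fell, and the remaining gene, *MADS15*, did not pass the test. Over all tested genes 5.03% were called lower and 5.05% higher. The members were chosen with earlier results of these data known, so their count is not a test against these shares. For each of the 6 genes every MADS29OX array lay below every WT array on the main probe set, a pattern shown by 26.5% of all tested genes. *MADS15*, *MADS50* and *MADS56* were above the floor in WT leaves only and *MADS29* in MADS29OX leaves only, so these 4 entered the test through 1 group. In bulk leaf RNA, less transcript per cell and fewer cells that express a gene cannot be told apart.

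**Figure D1:**
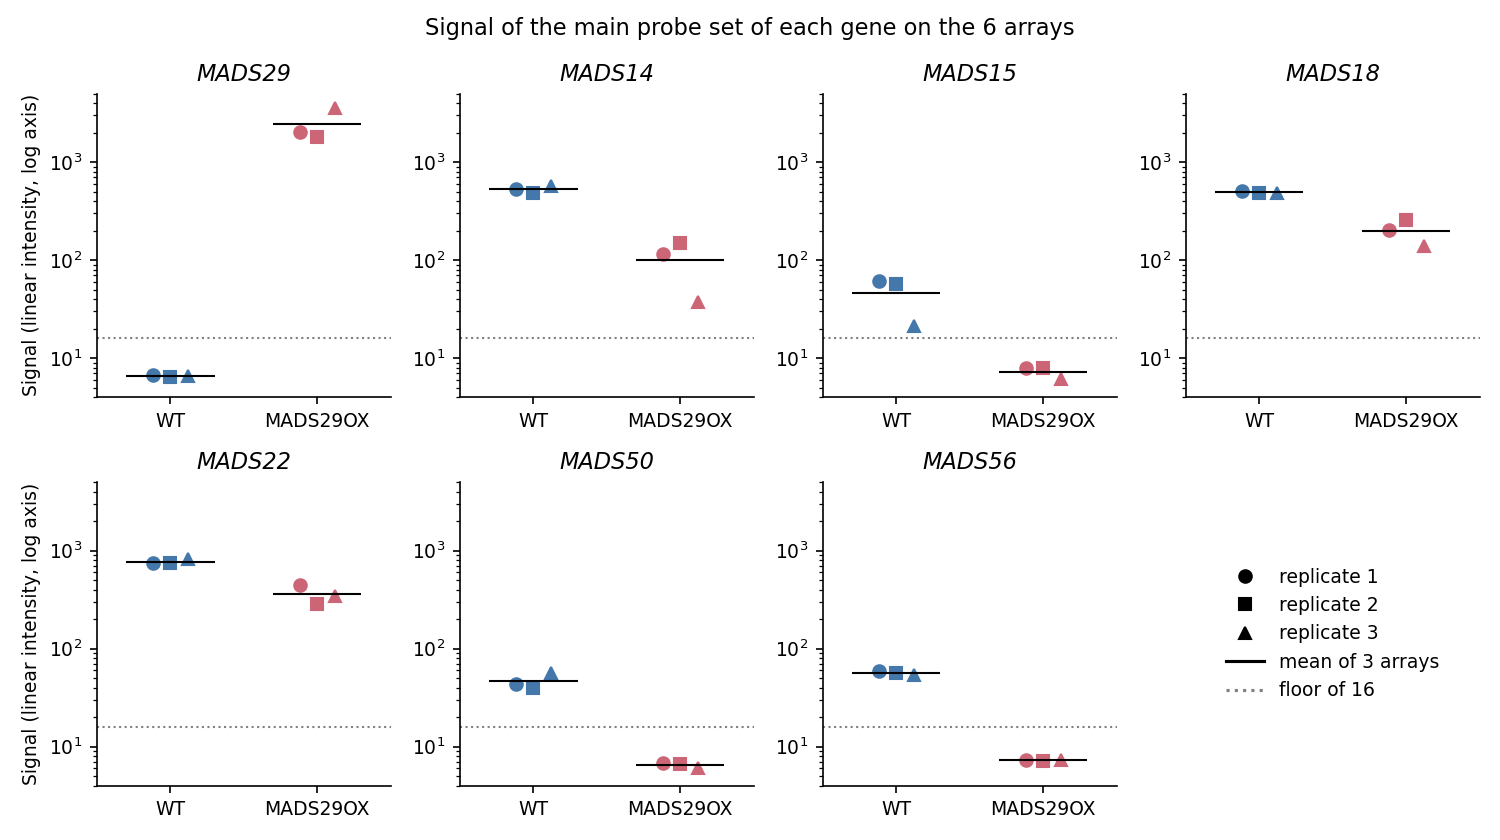
Signal of the main probe set (linear intensity on a log axis) of the 7 genes on each array, with WT in blue, MADS29OX in red, a symbol per replicate, a bar at the mean of 3 arrays and a dotted line at the floor of 16. *MADS29* lies between 1788 and 3590 in MADS29OX leaves and below the floor in WT, while the other 6 genes lie lower on every MADS29OX array than on any WT array.

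Among the AP1/FUL genes, *MADS14* (LOC4334140), which is switched on in rice when the apex becomes reproductive, showed the steepest fall of the genes measured above the floor in both groups. Its signal was 530, 488 and 572 in WT leaves. In MADS29OX leaves it was 115, 148 and 37.8. The WT arrays lay close together, whereas the third MADS29OX array, with 7.13% of the WT mean, was well below the first (21.7%) and the second (27.9%). The fall was 6.13-fold (95% interval from limma 2.59 to 14.5, log2 fold change -2.62, standard error 0.51, adjusted p = 0.0151), and 19 of the 10045 tested genes had a lower log2 fold change. Without MADS29OX replicate 3 the fall was 4.06-fold (adjusted p = 0.00252 from limma), and without any 1 of the WT replicates 1, 2 and 3 the call was lost (adjusted p between 0.0594 and 0.0647).

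The other 3 probe sets of *MADS14* gave the same direction with a smaller change. Of the 11 tested probe sets of the 6 genes 8 were called lower, against 5.11% of all tested probe sets called lower and 4.78% called higher. All 4 probe sets of *MADS14* are among these 8 and measure 1 gene on the same arrays, so the 8 are not independent. The second brightest had signals of 300.2, 335 and 357 in WT and 67.0, 92.2 and 37.9 in MADS29OX leaves, a 5.35-fold fall (adjusted p = 0.00447 from limma). The third, whose name ends in _x_at and which can bind other transcripts as well, had 146, 141 and 170 in WT and 38.9, 57.4 and 39.9 in MADS29OX leaves, a 3.40-fold fall (adjusted p = 0.00175). The faintest had 50.3, 65.2 and 78.8 in WT and 11.1, 21.4 and 6.71 in MADS29OX leaves, where 2 of 3 arrays lay at the floor, and fell 3.62-fold (adjusted p = 0.00239). The second MADS29OX array was the highest of its group on all 4 probe sets, and the third was the lowest on the 2 brightest; on the faintest the first and the third both lay below the floor, where their order carries no information. These 3 probe sets were called in each of 6 fits that left out 1 array, unlike the main one, which was called in 3 of 6.

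*MADS18* (LOC4343851), which shares its role with *MADS14* and is expressed more widely in vegetative tissue, fell less steeply and more evenly. Its signal was 509, 479 and 487 in WT leaves and 201, 258 and 139 in MADS29OX leaves. The order of the MADS29OX arrays was that seen for *MADS14*, with the second highest and the third lowest. The fall was 2.54-fold (95% interval 1.74 to 3.73, log2 fold change -1.35, standard error 0.22, adjusted p = 0.00910 from limma). This call held whichever array was left out, with a fold between 2.16 and 2.94. Adding 16 to the signals in place of a floor ended it (adjusted p = 0.0821), as did leaving out the floor (0.0765); in both cases all 57258 probe sets were tested.

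*MADS15* (LOC4342214), the close relative of *MADS14*, was uneven among the WT samples. Its main probe set gave 60.9, 56.9 and 21.1 in WT leaves. In MADS29OX leaves it gave 7.86, 7.87 and 6.18, all below the floor. The third WT array stood apart, with a signal far under that of the other 2, yet was still above all MADS29OX arrays. The ratio was at least 2.61-fold (log2 fold change -1.39, standard error 0.41), which did not pass the test (adjusted p = 0.0582 from limma). Without WT replicate 3 it was at least 3.68-fold and passed (adjusted p = 0.00225), whereas it was not called in the 5 fits that left out any other array.

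The low value on the third WT array recurred for *MADS15* on both of its other probe sets with signal. They gave 56.4, 49.5 and 19.5 and, for the probe set ending in _s_at, 37.3, 41.6 and 13.0 in WT leaves. Their log2 fold changes were -1.24 (adjusted p = 0.0728 from limma) and -0.87 (adjusted p = 0.142). The fourth probe set lay between 6.02 and 7.03 on all 6 arrays and was not tested. On the same WT array the other members showed no such drop. *MADS14*, *MADS22* and *MADS50* had their highest WT signal there, and *MADS56* its lowest, at 53.9 against 58.6 and 56.5.

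**Figure D2:**
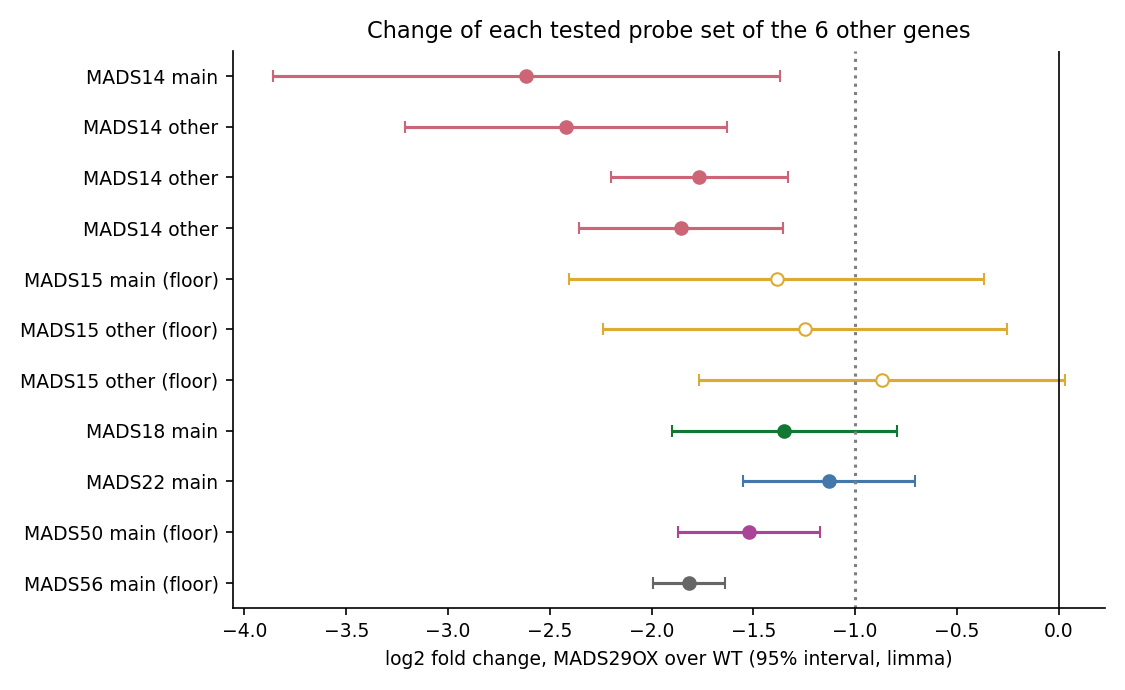
Log2 fold change of MADS29OX over WT (limma, with 95% interval) for the 11 tested probe sets of the 6 genes other than *MADS29*. Filled points were called lower, open points were not, the dotted line marks a 2-fold fall, and "floor" marks probe sets below the floor on all MADS29OX arrays, whose value understates the change. The 4 probe sets of *MADS14* lie between -2.62 and -1.77, and the intervals of *MADS15* are wide.

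Both SOC1 genes fell from a weak WT signal to background. *MADS50* (LOC4331445), the promoter of flowering, had signals of 43.3, 39.7 and 56.3 in WT leaves and 6.89, 6.59 and 5.99 in MADS29OX leaves. *MADS56* (LOC4349237), the repressor in long days, had 58.6, 56.5 and 53.9 in WT leaves and 7.36, 7.12 and 7.35 in MADS29OX leaves. The groups of both genes were far apart, and *MADS56* had the tighter WT signals, with 56.3 ± 2.32 against 46.4 ± 8.72 (SD, n = 3) for *MADS50*. *MADS56* was at least 3.52-fold lower (log2 fold change -1.82, standard error 0.07, adjusted p = 0.000159 from limma) and *MADS50* at least 2.87-fold lower (-1.52, standard error 0.14, adjusted p = 0.00138).

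These values understate the separation of both SOC1 genes, because the MADS29OX signals were replaced by the floor. With no floor the log2 fold change was -2.95 for *MADS56* (adjusted p = 0.000343 from limma) and -2.83 for *MADS50* (adjusted p = 0.00523). They were the only members called lower with no floor and with log2 of the value plus 16. With a floor of 32 their log2 fold changes shrank to -0.82 and -0.52, under 2-fold. Both were called whichever array was left out, with adjusted p from limma of at most 0.00342 for *MADS56* and 0.0108 for *MADS50*. Leaving out a MADS29OX array could not change the folds, because all 3 of these arrays were set to the floor. For the same reason the standard errors of both genes hold no spread among MADS29OX samples.

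*MADS22* (LOC4330805), the SVP gene, had the smallest change of the genes called. Its signal was 753, 741 and 816 in WT leaves. In MADS29OX leaves it was 445, 285 and 344. The order of the MADS29OX arrays differed here from that of the AP1/FUL genes, with the first array highest and the second lowest. The fall was 2.19-fold (95% interval 1.63 to 2.93, log2 fold change -1.13, standard error 0.17, adjusted p = 0.00691 from limma). Without MADS29OX replicate 2 it was 1.97-fold and thus under the fold limit (adjusted p = 0.00506). Its 1 probe set has a name ending in _s_at, so it may also bind transcripts of related genes.

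Set in order, the changes ran from *MADS14* (6.13-fold lower) through *MADS56*, *MADS50* and *MADS15* (bounds of 3.52-fold, 2.87-fold and 2.61-fold) to *MADS18* (2.54-fold) and *MADS22* (2.19-fold). The intervals of *MADS14*, *MADS18* and *MADS22*, the 3 genes measured above the floor in both groups, overlapped one another, and the bounds of the other 3 have no fixed place in the order. The third MADS29OX sample, with the highest *MADS29* signal, had the lowest signal of *MADS14* and *MADS18* but not of *MADS22*; the other 3 genes lay below the floor on all MADS29OX arrays, where the order carries no information. With 3 transgenic samples this is a description only.

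**Figure D3:**
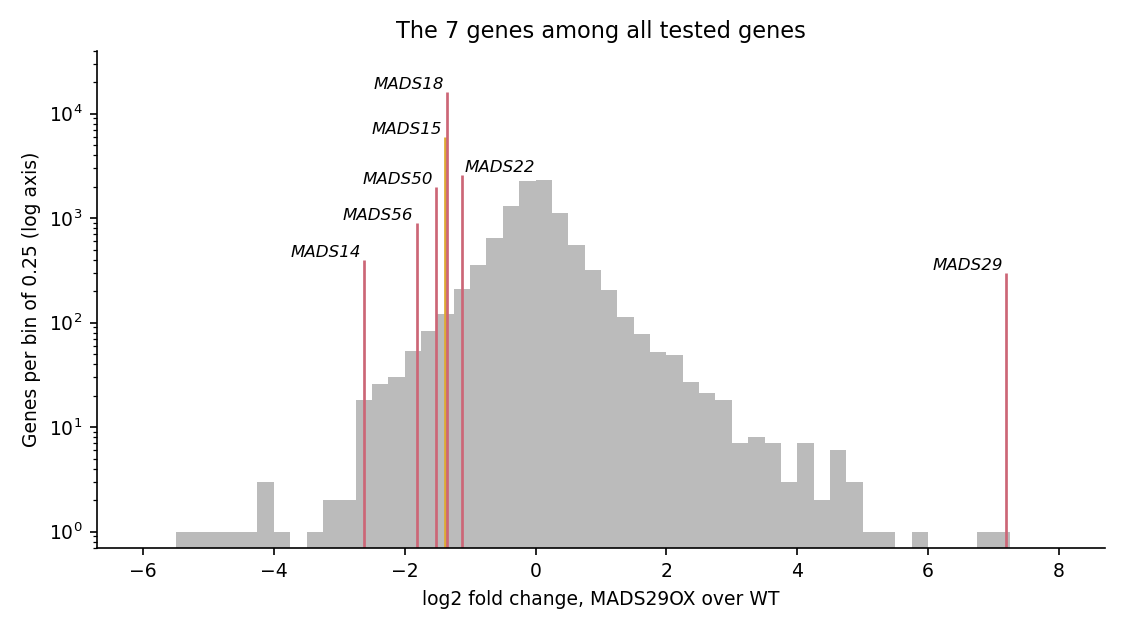
Number of genes (log axis) by log2 fold change of MADS29OX over WT for the 10045 tested genes, in grey, with red lines at the members that were called and a yellow line at *MADS15*. The 6 genes other than *MADS29* lie between -2.62 and -1.13, in the lower tail, and *MADS29* at 7.20.

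The rest of the family was mostly at background in these leaves. Of 24 other MADS-box genes with a probe set 20 lay at or below the floor on all 6 arrays, with signals between 4.75 and 14.7, and 4 were tested. Of these 1 was lower, 0 were higher and 3 were not called, against 5.03% lower and 5.05% higher over all tested genes. *MADS16*, the AP3-type gene of lodicule and stamen identity, had signals of 71.7, 68.5 and 67.0 in WT and 28.4, 38.8 and 23.0 in MADS29OX leaves. It fell 2.35-fold (log2 fold change -1.23, standard error 0.19, adjusted p = 0.00770 from limma). It was thus the 1 floral organ marker with a clear leaf signal, and it was also lower on every MADS29OX array.

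The relatives of *MADS22* in the SVP group differed in their leaf signal. *MADS55* had 731, 757 and 722 in WT and 429, 573 and 395 in MADS29OX leaves. Its change on the log2 scale, -0.68, met the limit on the adjusted p but was under 2-fold (adjusted p = 0.0236 from limma). *MADS47* was below the floor on all arrays, with 7.07 to 8.54 in WT and 9.07 to 14.01 in MADS29OX leaves, so no fold is given. Among the other relatives of the 7 genes, *MADS20* of the AP1/FUL group, *MADS30* of the B-sister group and *MADS34*, the partner of the AP1/FUL genes at the inflorescence meristem, lay at background in both groups, with signals of at most 5.26, 5.64 and 7.61.

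*MADS57*, an AGL17-type gene linked in rice to tillering, showed signals of 31.96, 31.1 and 32.2 in WT leaves and 11.6, 11.0 and 13.3 in MADS29OX leaves. The groups were far apart, but the floor held its log2 fold change at -0.99, just under 2-fold (adjusted p = 0.000529 from limma). Without WT replicate 2 it was just past 2-fold and called (adjusted p = 0.00676). With no floor it was -1.41 and called (adjusted p = 0.00530). With a floor of 32, close to its WT signals, it was -0.002 and not called (adjusted p = 0.982 from limma). *MADS2*, a gene of lodicule and stamen identity, reached 24.5 on the first MADS29OX array and stayed below the floor on the other 5 (log2 fold change 0.20, adjusted p = 0.454).

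**Figure D4:**
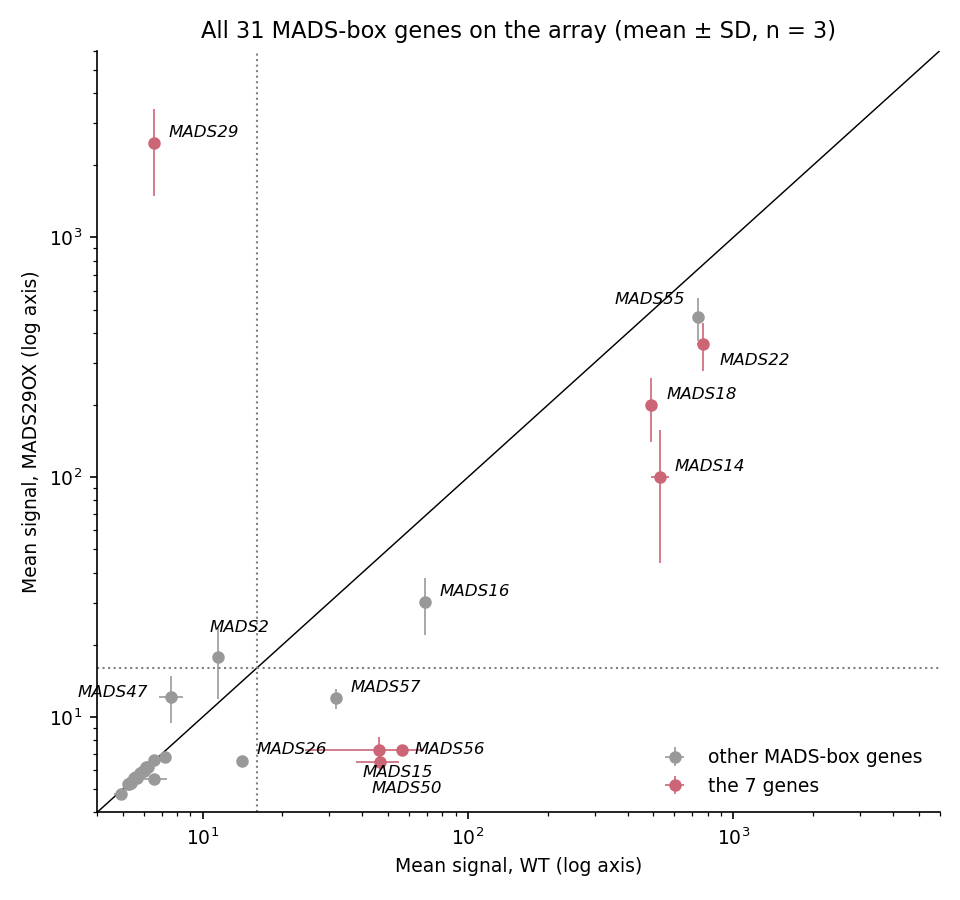
Mean signal in WT (horizontal, log axis) against MADS29OX leaves (vertical, log axis) for the 31 named MADS-box genes with a probe set, with the 7 genes in red and the other 24 in grey, bars of 1 SD (n = 3), the line of equal signal and dotted lines at the floor of 16. Most grey points sit at background in both groups, and the genes with a WT signal above the floor lie below the line of equal signal.

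Among flowering-time genes outside the MADS-box family *GI*, *HD3A* and *PRR37* were called higher. Of 35 such genes listed, 18 were found by name in the gene table and 15 of these had a probe set. The test covered 12, of which 3 were higher, 0 lower and 9 not called (limma, with 7 at an unadjusted p under 0.05). Over all tested genes 5.03% were lower, 5.05% higher and 38.9% at an unadjusted p under 0.05, so 0 lower genes of 12 is near the share over all genes. *GI*, which links the circadian clock to flowering, rose 5.28-fold, from 79.6, 83.7 and 91.5 in WT to 573, 369 and 424 in MADS29OX leaves (log2 fold change 2.40, standard error 0.18, adjusted p = 0.000631). *HD3A*, the mobile florigen made in leaves, was below the floor in WT (7.93, 9.01 and 7.98) and reached 49.9, 86.7 and 57.7 in MADS29OX leaves, at least 3.93-fold higher (adjusted p = 0.00207). In rice, the florigen complex is known to act upstream of *MADS14* and *MADS15* at the shoot apex. In these leaves *HD3A* was thus higher on the same arrays on which *MADS14* was lower.

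*PRR37*, a clock-related repressor of flowering in long days, rose 2.03-fold (log2 fold change 1.02, standard error 0.14, adjusted p = 0.00540 from limma), from 128, 118 and 141 in WT to 242, 315 and 232 in MADS29OX leaves. The call was not firm: the log2 fold change was 0.96 without WT replicate 2, 0.88 without MADS29OX replicate 2, 0.95 with array weights and 0.94 with log2 of the value plus 16, where the adjusted p was 0.0518. The second, fainter probe set of *PRR37* was not called (17.8, 22.0 and 22.4 in WT, 23.2, 35.5 and 25.7 in MADS29OX leaves, log2 fold change 0.42, adjusted p = 0.157). *GF14C* encodes a 14-3-3 protein that binds florigen, and its log2 fold change was 0.75 (adjusted p = 0.0203); for *HD16*, a casein kinase gene, it was -0.43 (0.0167), both under 2-fold. *GI* and *PRR37* follow the time of day, and harvest time is not given. A difference in harvest time between the groups thus cannot be told apart from one between genotypes. This holds for *HD3A* and the other genes as well. *HD1* lay between 6.35 and 9.20 on all arrays and was not tested. The phytochrome genes *PHYA*, *PHYB* and *PHYC* were not called, with log2 fold changes of -0.44, 0.30 and 0.44.

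**Figure D5:**
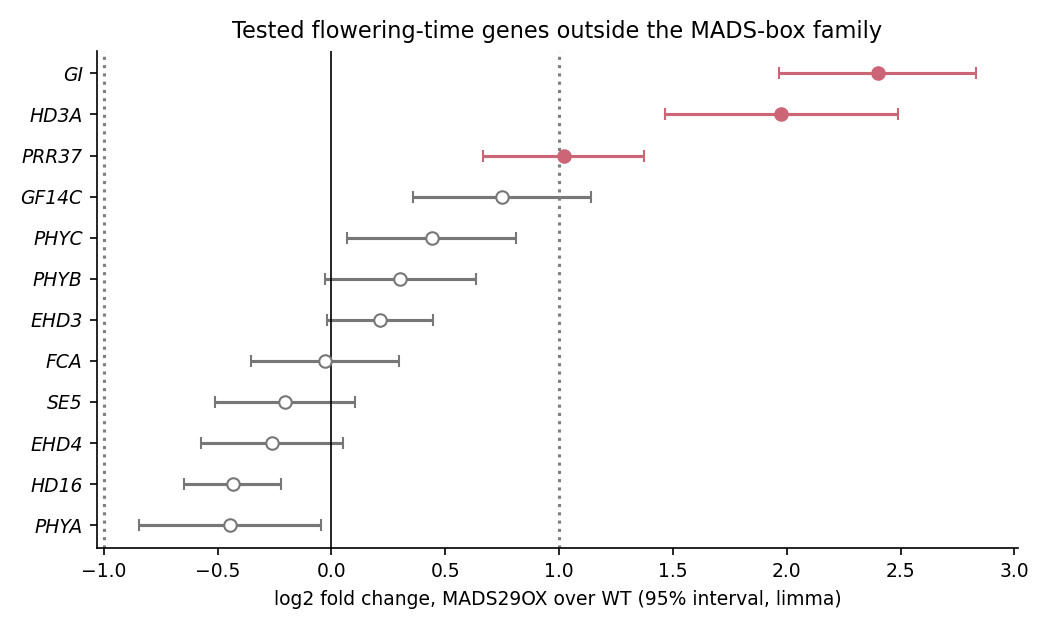
Log2 fold change of MADS29OX over WT (limma, with 95% interval) for the 12 tested flowering-time genes outside the MADS-box family. Filled red points were called (*GI*, *HD3A* and *PRR37*, all higher), open points were not, and dotted lines mark 2-fold changes, *HD3A* being a lower bound.

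Most genes of the shoot and inflorescence meristem were at background. Of 28 such genes listed 20 were found by name in the gene table and 15 of these had a probe set. Of the 15, 13 lay between 5.25 and 8.24 on all arrays, including the KNOX gene *OSH1* and the LEAFY homologue *APO2*. With limma 0 of the 2 tested genes were called, and 0 had an unadjusted p under 0.05. Over all tested genes 5.03% were lower, 5.05% higher and 38.9% at an unadjusted p under 0.05, so 2 genes are too few for a comparison. The 2 tested genes were *FON1*, a CLAVATA1-like receptor gene (log2 fold change 0.21, adjusted p = 0.632), and *LOG*, a cytokinin activation gene (-0.19, adjusted p = 0.735). *LOG* was uneven among MADS29OX samples, with 77.1, 189 and 196 against 156, 157 and 174 in WT leaves.

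The profiles most like those of the 3 members above the floor on all arrays were sought among 1547 other named genes, as the smallest root mean square distance between log2 signals centred on their mean over the 6 arrays. *MADS18* lay closest to *MADS16* (distance 0.09) and to *NIT4*, a nitrilase gene (0.09). *MADS22* lay closest to *NLP1*, of the NIN-like protein family (0.08), and to *OsSAP6*, of the stress-associated protein family (0.10). *MADS14* had no neighbour as close, with *BGLU16*, a β-glucosidase gene, at 0.28 and the narrow leaf gene *NAL1* at 0.51. *BGLU16* had signals of 168, 155 and 204 in WT and 30.6, 55.4 and 18.9 in MADS29OX leaves, the same order of transgenic samples as *MADS14*. The nearest profile was therefore another MADS-box gene for *MADS18* only, where *NIT4* was almost as close (0.0893 against 0.0876 for *MADS16*).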

How the data were processed

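Biotin-labelled cRNA from total leaf RNA was hybridized to 6 Affymetrix rice arrays, 3 WT and 3 MADS29OX. Each array has 57381 deposited intensities, linear and 1 per probe set, of which 123 are controls and were dropped. How the authors corrected, normalized and summarized them is not given in the sources used here, and no scaling was added. Signals under 16 were set to 16 before log2. After removal of 43020 probe sets that never exceeded this floor, limma (version 3.58.1, R version 4.3.3) was fitted to 14238 probe sets by lmFit and eBayes with group as the single factor. Adjusted p-values are those of Benjamini and Hochberg across these probe sets. The fit was run on simulated data with known changes, placed only in probe sets with a mean WT signal above 32. Genes at the floor in WT leaves, such as *HD3A*, were thus not covered. With 3 arrays against 3, an exact permutation test cannot give a p below 0.1, so none is quoted. The number of arrays limits the precision.

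In the platform annotation 22436 probe sets had a single gene and 95 had more. Names came from RefSeq's rice genes (assembly ASM3414082v1), matched in Python 3.11.15. All 7 members were matched; no coordinates are given, since the array's build is not named, and no sequences were used here. The members and gene lists (other MADS-box, flowering-time, inflorescence and meristem genes, and markers of leaf, floral organs and seed) were chosen with earlier results of these data known. Genes caught through a shared synonym were removed. Named are all members, every called gene of the lists, the 2 brightest of a list with no call, and the 2 nearest profiles. *MADS2*, *MADS20*, *MADS30*, *MADS34*, *MADS47*, *MADS55* and *MADS57* were named after their values were seen. So were the leaf markers and flowering-time genes that were not called, and untested genes. Of 6 seed markers 3 were tested and 0 were called. The count at an unadjusted p under 0.05 was 2, against 38.9% of all tested genes (limma). Of the 5 tested leaf markers 1 was higher and 1 lower, against 5.05% and 5.03% of all tested genes.

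Replicate numbers are shared between the groups, but same-numbered samples did not deviate together (correlations 0.03, -0.04 and -0.13 across probe sets), so no block was used.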

Additional observations from a re-analysis of the deposited data

How the results depend on the processing

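Of the 20 alternatives, none reversed the direction of any member. The count of members called lower, 5 as reported, was 2 with log2 of the value plus 16, 2 with no floor, 3 with a floor of 32 and 3 with a mean above 32. The last setting removes *MADS15*, *MADS50* and *MADS56* by construction. With a floor of 32 the WT signals of *MADS50* and *MADS56* cap their folds at 1.43 and 1.76, so these calls are lost by construction too. For log2 of the value plus 16 and for no floor the cause was not tested. The count was 4 without probe sets ending in _x_at or _s_at, where *MADS22* had no probe set left. It was between 4 and 5 with 1 array left out. With log2 of the value plus 16 the calls of *MADS14* (adjusted p = 0.105 from limma) and *MADS22* (0.0641) were also lost, and with no floor those of *MADS14* (0.120) and *MADS22* (0.0564). These are main probe sets. The second brightest of *MADS14* stayed called in both settings (adjusted p = 0.0416 and 0.0474 from limma), as did the third (0.0216 and 0.0208). The faintest was called in neither. *MADS16* was called in neither (adjusted p = 0.0584 and 0.0641). *MADS29* was called under all 20.

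Probe sets called, 681 higher and 728 lower, or 1409 in all, were 272 higher and 346 lower, 618 in all, with log2 of the value plus 16, 442 higher with no floor, and 1524 higher and 2152 lower, 3676 in all, with no fold limit. Genes called, 507 higher and 505 lower, were 191 and 240 with the value plus 16, 305 higher with no floor, and 1148 and 1519 with no fold limit. Other MADS-box genes called, 1 and lower as reported, were 0 with the value plus 16, 2 with no floor, 3 with no fold limit and between 1 and 2, all lower, with 1 array left out (2 without WT replicate 2, *MADS57* being added). Flowering-time genes called, 3 as reported, were 5 with no fold limit, 1 of them lower, and 2 with log2 of the value plus 16, with array weights, with the mean of all probe sets of a gene, with a floor of 32, and without WT replicate 2 or MADS29OX replicate 2. The lost gene was *HD3A* with a floor of 32 (log2 fold change 0.98) and *PRR37* in the others (0.72 with the mean of its probe sets, adjusted p = 0.0210 from limma). Group weights, which let MADS29OX and WT arrays differ in spread, kept the 5 calls of members.

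The replicate block kept 5 members lower and 1 higher, with adjusted p from 0.00590 to 0.0350 for these 6, and changed no other call of a member. The planned comparison of promoter motifs was not run, since no sequences were used here. Signals near the floor limit the values of *MADS15*, *MADS50* and *MADS56*.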
